A study of Mus musculus with 98 samples.

Results

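PcTEC is the label that the deposited annotation of the newborn thymic stroma gives to perinatal cortical thymic epithelial cells (cTEC). All cells carrying it were taken, without change, which gave 4826 of the 21451 labelled cells and 53.1% of the 9083 cells with any of the 9 thymic epithelial cell (TEC) labels. The other cortical label was McTEC (1649 cells), and the next in size was ItTEC, the intertypical TEC (1166 cells).

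The cells came from mice at postnatal day 0 (P0). One group, called HET here, carried 1 lacZ allele of Tbx1 and 1 null allele of Crkl (Tbx1LacZ/+ Crkl+/-), as a model of the 22q11.2 deletion syndrome, and the other group was their WT littermates, with 3 libraries in each. The Crkl allele was made with Meox2-Cre and then backcrossed to C57BL/6 until the Cre was lost, and the compound mice were the offspring of Tbx1+/- males and Crkl+/- females, so the alleles were carried by all cell types and not by epithelium alone. Live Ter119-CD45- cells were sorted, which removes most erythroid and haematopoietic cells. Cells of both genotypes were then fixed in RNAprotect Cell Reagent and stored. They were captured with the 10x 3′ method, in which each captured transcript is counted once through a unique molecular identifier (UMI). A second data set, bulk RNA sequencing of cTEC and medullary TEC (mTEC) sorted from WT mice at P0 and 4 weeks (W4) with 6 libraries per group, was used as an independent readout of the genes that mark PcTEC.

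The cortical epithelium is where thymocytes commit to the T lineage and undergo positive selection. cTEC depend on the transcription factor Foxn1, attract and sustain progenitors through Ccl25, Cxcl12, Dll4 and Il7, and display a private set of self peptides made with the thymoproteasome subunit Psmb11, the protease Prss16 and the cathepsin Ctsl. Interferon gamma, acting in part through Irf1, induces GTPases that defend cells against intracellular microbes, chemokines such as Cxcl10, and Cd274, also in epithelial cells.

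The 6 libraries held 401 to 1379 PcTEC, with 1347813 to 6970975 UMIs in all. The median PcTEC held 2641 to 2838 UMIs in the HET libraries and in WT replicate 1, but 4466 in WT replicate 2 and 5920 in WT replicate 3. The lowest number of genes in a PcTEC was 899 to 908 by library, under the stated minimum of 1000, and 293 PcTEC had no more than 1000. HET replicate 2 stood apart: the summed level of 15 thymocyte markers in its PcTEC was 149.2 CPM, the counts per 1e+06 UMIs, against 26.3 to 50.04 in the other 5 libraries, that of 5 erythroid markers was 311 against 10.4 to 64.1, and that of 8 fibroblast markers was 1777 against 486 to 1314. The nuclear RNA Malat1 took 10.2, 5.08 and 12.53% of the PcTEC UMIs in the HET libraries and 9.30, 6.21 and 5.01% in those of WT. Genes of ribosomal proteins took 7.05, 12.9 and 8.12% in HET and 7.98, 10.3 and 11.5% in WT. Barcodes were shared with another library in 21 PcTEC. Across all genes tested, the PcTEC sums of the libraries correlated with Spearman's rho between 0.900 (HET replicate 3 and WT replicate 3) and 0.979 (WT replicates 2 and 3).

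The label was first checked against 4 cortical markers. Prss16, the thymus-specific serine protease, was at 2510, 2150 and 2108 CPM in PcTEC of the HET libraries and at 2351, 2259 and 2486 CPM in those of WT. Its mean was 2811 CPM in McTEC, 730 CPM in ItTEC and 208 CPM in MmTEC, a medullary label. Psmb11, the catalytic subunit of the thymoproteasome, averaged 213 CPM in PcTEC, 320 CPM in McTEC and 62.1 CPM in ItTEC. Ly75, an endocytic receptor averaged 369, 449 and 104 CPM in the same labels, and Slc46a2, a transporter of the thymic stroma, 901, 801 and 659 CPM. The 4 markers therefore set PcTEC apart from the medullary and intertypical labels, Slc46a2 least so, but not from McTEC, where 3 of the 4 averaged higher. Of the full list of 14 cortical markers, 2 averaged higher in PcTEC than in McTEC. These comparisons between labels are descriptions, since the labels were drawn from the same cells.

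**Figure D1:**
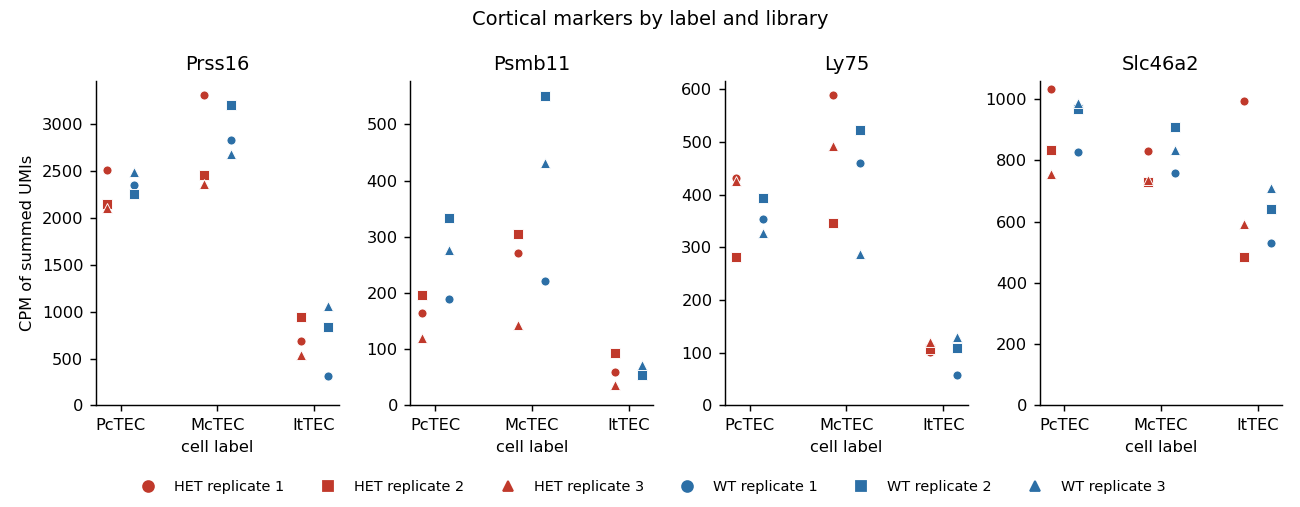
Level of 4 cortical markers (CPM of UMIs summed per label and library, vertical axis) in the labels PcTEC, McTEC and ItTEC, with 1 point for each of the 3 HET and 3 WT libraries. PcTEC lie well above ItTEC for Prss16, Psmb11 and Ly75, with McTEC at or above PcTEC in the mean, and Slc46a2 separates the 3 labels least.

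By the share of cells, Prss16 had at least 1 UMI in 93.2% of PcTEC (median depth 3310.5 UMIs), and in 31.6% of fibroblasts (median depth 3240 UMIs), which should lack it. After each cell was thinned to 2000 UMIs, which left out shallower cells and kept 81.95% of PcTEC and 81.2% of fibroblasts, the shares were 90.1% and 19.9%. Thinned shares for Psmb11 were 28.6% of PcTEC against 3.33% of fibroblasts, and for Ly75 they were 46.9% against 1.80%. Every one of these PcTEC shares was therefore above that of fibroblasts. The source of the UMIs in fibroblasts was not tested.

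Interferon-inducible genes were at the head of those that led PcTEC over all other TEC labels. The 20 leading genes were ranked among 3933 genes by the ratio of mean CPM + 5 in PcTEC to that in the next highest label, leaving out the proliferating label PrTEC, whose cells can be of any TEC type, and 8 of the 20 were GTPases of the IRG and GBP families, which interferons induce and which act against intracellular microbes. F830016B08Rik, an IRG family member, led the list, with 923, 341 and 1530 CPM in the HET libraries and 1075, 703 and 639 CPM in WT. It was 3.15 times the level of the next label, ItTEC (272 ± 91.9 CPM, SD, n = 6), and higher in PcTEC than in McTEC in 6 of 6 libraries. HET replicate 2 was lowest and HET replicate 3 highest, so the HET libraries spanned those of WT.

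The related Iigp1 was at 956, 656 and 1615 CPM in HET and 1173, 879 and 862 CPM in WT, 1.84 times the next label. Gm4841 (ratio 2.60), Gbp5 (2.03), Gbp2 (1.90), Irgm1 (1.87), Igtp (1.58) and Gbp7 (1.52) were the other GTPases. They were accompanied by Irf1, a transcription factor of the interferon response, at 1091, 989 and 1058 CPM in HET and 1051, 1115 and 1047 CPM in WT. Its 6 values lay close together, and the next label, nTEC, averaged 605 CPM. Cxcl10, a chemokine induced by interferon gamma, was at 4704, 3577 and 5416 CPM in HET and 4689, 4481 and 4572 CPM in WT, 1.52 times its level in ItTEC. Cd274, which encodes the checkpoint ligand PD-L1, was at 451, 278 and 661 CPM in HET and 532, 447 and 381 CPM in WT, 1.62 times its level in McTEC. Several of these genes were also found widely outside PcTEC. In thinned cells, Irf1 had a UMI in 71.8% of PcTEC and 54.8% of fibroblasts, Cxcl10 in 85.5% and 51.5%, and Iigp1 in 64.6% and 28.1%. F830016B08Rik had one in 38.8% and 9.27%, and Cd274 in 46.3% and 2.25%. Cxcl10 was also found in 78.5% of thinned ItTEC.

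Leading genes outside this group were Ier3, an immediate early gene (ratio 1.99), Fat3, a cadherin (1.65), Dsc3, a desmosomal cadherin (1.502), Col18a1, a basement membrane collagen (1.48), Frem2, an extracellular matrix protein (1.47), and the RNAs Gm12840, Gm26809, Gm17056 and Gm12216. In PrTEC, left out of the ranking, Fat3 averaged 58.2 CPM and Gm12840 110 CPM, beside 65.8 and 133 CPM in PcTEC. The edge of the list was not sharp, as the last gene named had a ratio of 1.474 and the next gene 1.471. In WT libraries alone 15 of the 20 were again leading, Cxcl10 and Iigp1 being among those lost, and in HET libraries alone 13 were, with Gbp2, Gbp7 and Igtp among those lost. All 20 were higher in PcTEC than in McTEC in every library, and Gbp2, Igtp and Gbp7 ranked first among the labels in 5 of 6 libraries and Gm17056 in 4.

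**Figure D2:**
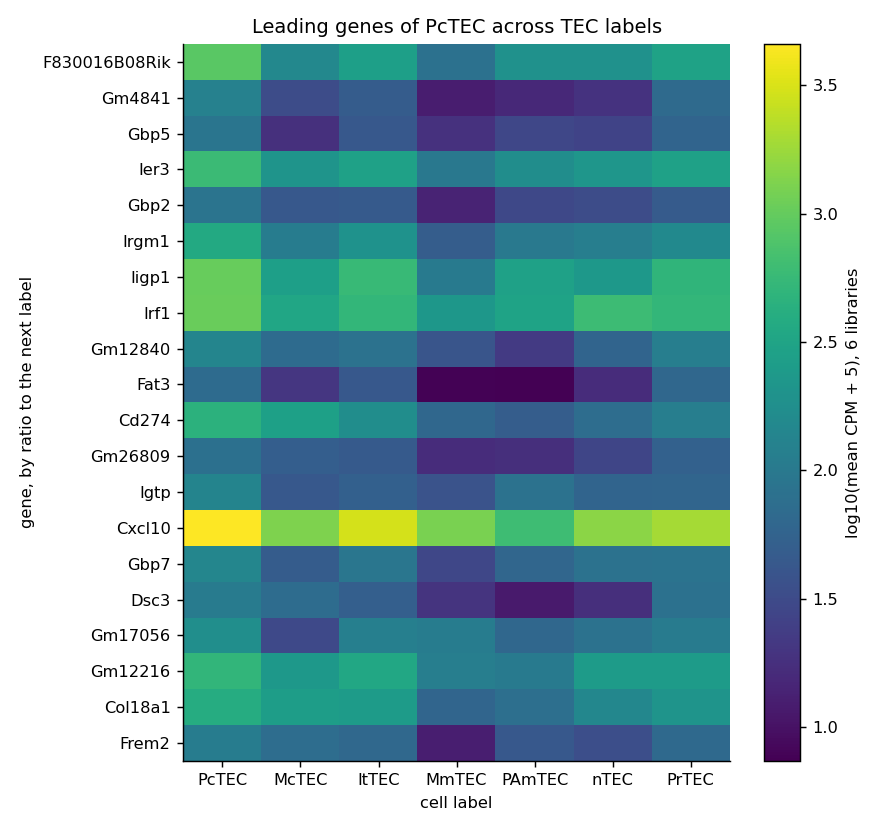
Mean level over libraries, as log10(mean CPM + 5) in colour, of the 20 leading genes of PcTEC (rows, in order of their ratio to the next label) in 7 TEC labels (columns) with 6 libraries each. The PcTEC column is the brightest in each row, and Cxcl10 is the gene with the highest level.

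Most, but not all, of the listed interferon-inducible GTPases averaged highest in PcTEC. Of the 16 genes of this list in the table, 15 averaged higher in PcTEC than in McTEC and 13 had their highest mean in PcTEC among the labels ranked, and the median ratio of PcTEC to McTEC was 2.96, beside 1.002 over the 4182 genes ranked. Their summed level in PcTEC was 3083, 1982 and 4951 CPM in HET and 3773, 2865 and 2588 CPM in WT, and it was 893 ± 142 CPM in McTEC and 1535 ± 399 CPM in ItTEC (SD, n = 6). The lowest PcTEC library was thus above the highest McTEC library, at 1126 CPM. The reads of Tgtp1 and Tgtp2, which are near-identical, may be split between the copies. The list was drawn up after these genes had been seen to lead, so its counts are not independent of them. Genes of antigen presentation did not share this lead. Of 13 genes of MHC class II presentation, 4 averaged higher in PcTEC than in McTEC and 0 had their highest mean in PcTEC. Of 16 genes of MHC class I and the proteasome, these numbers were 5 and 2. The receptor genes Ifngr1 and Ifngr2 averaged 51.1 and 73.7 CPM in PcTEC and 49.3 and 69.2 CPM in McTEC.

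Promoters of 4 leading genes are shown as examples of those that hold a known interferon response element, and were chosen among the genes with a match. The 250 bases before the annotated start (RefSeq, GRCm38.p6) were searched on both strands for the gamma-activated site (GAS, TTCNNNGAA) and the interferon-stimulated response element (ISRE, GAAA and again GAAA with any 2 bases between), which can overlap. In capitals below are the matches, 5′ to 3′ in the direction of the gene, for Irf1 (chr11:53769764-53770013, + strand), Gbp5 (chr3:142496684-142496933, + strand), Igtp (chr11:58199306-58199555, + strand) and Cxcl10 (chr5:92348890-92349139, - strand), with Psmb11 (chr14:54625060-54625309, + strand), a cortical marker with no match, for comparison.
Irf1: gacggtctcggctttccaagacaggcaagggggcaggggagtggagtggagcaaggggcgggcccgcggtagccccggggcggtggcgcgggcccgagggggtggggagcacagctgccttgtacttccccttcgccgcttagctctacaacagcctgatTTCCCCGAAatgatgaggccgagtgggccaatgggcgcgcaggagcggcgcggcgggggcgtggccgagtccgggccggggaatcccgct
Gbp5: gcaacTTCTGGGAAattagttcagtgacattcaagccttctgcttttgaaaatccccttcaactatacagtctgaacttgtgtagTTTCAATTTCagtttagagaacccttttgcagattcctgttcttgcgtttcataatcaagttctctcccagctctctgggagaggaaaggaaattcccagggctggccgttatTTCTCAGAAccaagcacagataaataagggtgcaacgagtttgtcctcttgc
Igtp: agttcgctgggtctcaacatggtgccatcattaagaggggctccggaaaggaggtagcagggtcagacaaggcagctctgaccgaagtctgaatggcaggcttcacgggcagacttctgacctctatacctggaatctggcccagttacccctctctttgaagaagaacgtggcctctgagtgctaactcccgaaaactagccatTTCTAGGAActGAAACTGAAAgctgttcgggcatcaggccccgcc
Cxcl10: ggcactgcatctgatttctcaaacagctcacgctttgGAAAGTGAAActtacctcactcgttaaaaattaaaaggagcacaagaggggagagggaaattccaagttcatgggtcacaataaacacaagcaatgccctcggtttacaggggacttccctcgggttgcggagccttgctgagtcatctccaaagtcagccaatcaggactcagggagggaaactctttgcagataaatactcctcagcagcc
Psmb11: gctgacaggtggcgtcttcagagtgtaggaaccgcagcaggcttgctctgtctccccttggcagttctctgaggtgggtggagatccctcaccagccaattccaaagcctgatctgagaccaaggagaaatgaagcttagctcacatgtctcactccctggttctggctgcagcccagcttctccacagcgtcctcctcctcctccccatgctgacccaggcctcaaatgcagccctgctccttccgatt

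The GAS of Irf1 began 90 bases before the start and the ISRE of Cxcl10 began 213 bases before it, while Igtp held a GAS at 45 and an ISRE at 34 bases and Gbp5 held an ISRE at 165 and a GAS at each of 245 and 52 bases. Promoters were found for 13 of the 20 leading genes, and 4 of them held a GAS, 6 an ISRE and 7 either, so that 6 held neither. Over all 27025 promoters searched, 7.18% held a GAS, 3.04% an ISRE and 9.83% either. Of the 10 listed GTPases with a promoter, 10 held an ISRE and 7 a GAS. Of the 12 cortical markers with a promoter, 1 held a GAS and 0 an ISRE. A match describes the letters of this window only.

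Immediate early genes also distinguished PcTEC from McTEC. Of the 16 genes of the immediate early and heat shock list, 14 averaged higher in PcTEC than in McTEC, with a median ratio of 2.29. Fosb, a subunit of the AP-1 factor, was at 1136, 677 and 1273 CPM in HET and 1160, 539 and 430 CPM in WT, 5.68 times its McTEC level of 148.9 ± 55.1 CPM (SD, n = 6). Atf3, a stress-induced factor, averaged 556 ± 102 CPM in PcTEC and 124.1 ± 39.4 CPM in McTEC, and Nr4a1, an early response nuclear receptor outside the list, 111 ± 27.2 CPM and 23.9 ± 9.37 CPM. The list did not mark PcTEC among all TEC, since the sum of the list was 13381 ± 678 CPM in PcTEC and 14314 ± 3015 CPM in ItTEC, and 6026 ± 1124 CPM in McTEC. Such genes can be induced while tissue is dissociated, and whether that bears on the labels was not tested.

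The 12 genes with the highest ratio of PcTEC to McTEC were Gm17056, F830016B08Rik, Fosb, Gbp5, Gm26802, Atf3, Rrad, Nr4a1, Gm4841, Iigp1, Arid5a and Gm26545, with ratios from 5.86 down to 3.62. Over 4182 genes, 78 were more than 2 times higher in PcTEC and 11 more than 2 times lower. The lowest ratios were those of Chga and Pth, genes of neuroendocrine and parathyroid cells, at 8.37 and 36.4 CPM in PcTEC against 196 and 299 CPM in McTEC. These means rested largely on HET replicate 2, where Pth was at 1777 CPM in McTEC and 199 CPM in PcTEC, while in the other 5 libraries it was at most 14.5 and 11.5 CPM. Chga was at 1042 and 42.96 CPM in that library, and in McTEC it was also at 128.6 CPM in WT replicate 1. Genes lower in PcTEC in 6 of 6 libraries were Fxyd2, a regulator of the sodium pump, at 75.5 ± 23.1 CPM in PcTEC and 258 ± 62.5 CPM in McTEC, Ccl21a, a medullary chemokine, at 226 ± 101.4 and 498 ± 178 CPM, and Krt5, a keratin of the medulla, at 118.8 ± 23.2 and 259 ± 95.9 CPM. Gm26870, 4631405K08Rik, Bhlhe41, Skint7, Dusp28, Gm16141 and Cysltr2 completed the 12 and were also lower in 6 of 6 libraries.

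Several genes of cortical function averaged lower in PcTEC than in McTEC, but not all did. Of 12 T lineage ligands, 7 averaged higher in PcTEC, with a median ratio of 1.03. Ccl25, the chemokine that recruits thymocyte progenitors, was at 1735, 1418 and 1140 CPM in PcTEC of HET and 1592, 2017 and 2436 CPM in those of WT, beside a mean of 3164 CPM in McTEC. Tbata, a gene expressed in thymic epithelium, averaged 1386 CPM in PcTEC and 2486 CPM in McTEC, and Cd83, which stabilises MHC class II on cTEC, 193 and 216 CPM. Foxn1 averaged 118 and 149.5 CPM. Il7, a cytokine of early thymocytes, averaged 254 and 345 CPM, while Dll4, the Notch ligand that commits progenitors to the T lineage, averaged 45.8 and 44.8 CPM. The stem cell factor Kitl averaged 94.1 and 82.8 CPM.

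Genes reported for fetal and perinatal epithelium were low or mixed. Of the 11 on this list, 6 averaged higher in PcTEC than in McTEC and 2 had their highest mean in PcTEC among the labels ranked. Hmga2, a chromatin factor of growing tissue, was at 51.3, 33.1 and 48.8 CPM in HET and 57.9, 33.9 and 26.8 CPM in WT, beside 14.5 CPM in McTEC and 11.5 CPM in ItTEC. Syngr1 averaged 134.3 CPM in PcTEC, 151.2 CPM in McTEC and 48.8 CPM in ItTEC. The RNA-binding protein gene Lin28b had no UMI in PcTEC of the 3 WT libraries and at most 0.558 CPM in those of HET, under the limit of 3 counts (0.430 to 2.23 CPM by library).

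**Figure D3:**
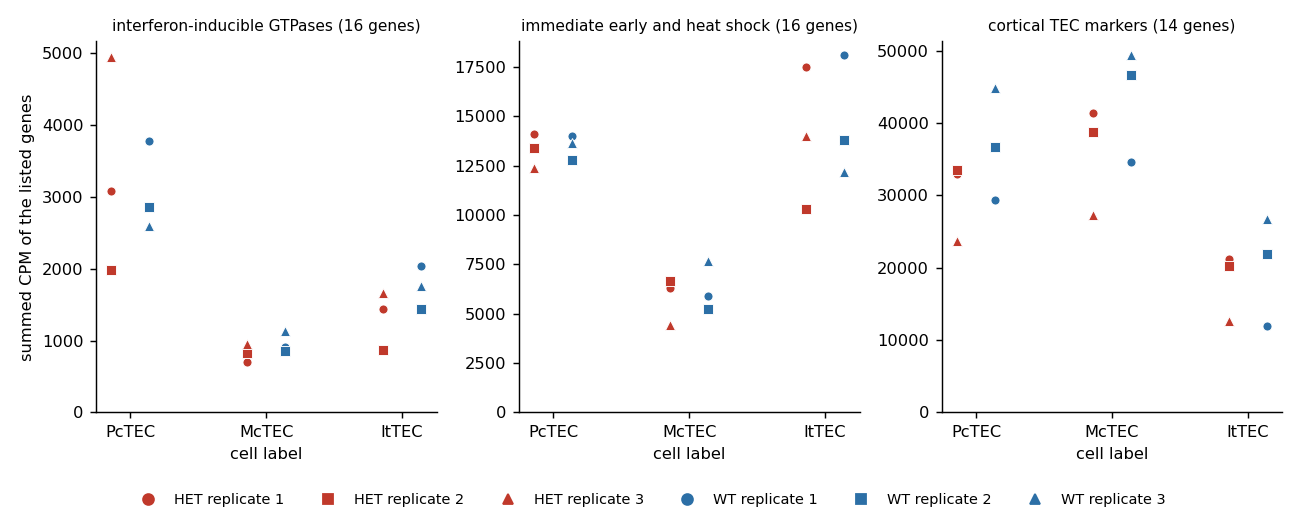
Summed level (CPM, vertical axis) of the interferon-inducible GTPases (16 genes), the immediate early and heat shock genes (16) and the cortical TEC markers (14) in PcTEC, McTEC and ItTEC, with 1 point per library. The GTPases are highest in PcTEC in each library, the immediate early genes are higher in PcTEC and ItTEC than in McTEC, and the cortical markers are lowest in ItTEC.

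PcTEC were not uniform. The deposited clustering placed 1866 PcTEC (38.7%) in cluster 2 and 1651 (34.2%) in cluster 3, with 508, 411, 213, 91 and 80 in clusters 6, 8, 9, 14 and 17 and 6 in others. PcTEC were most of clusters 2 and 3, which held 1954 and 1856 cells of any label. They were a minority of clusters 6, 8, 9, 14 and 17, which held 1312, 1186, 954, 591 and 390 cells. The levels below are those of PcTEC in each cluster. Cluster 2 held the highest levels of the interferon-inducible genes: its leading genes were Gbp2 (126 CPM, against 58.6 CPM in the next cluster), Gbp4, Gbp5, Casp4, Tgtp2, Cd274, F830016B08Rik, Birc3, Cxcl10 and Hmgcs1. Cd274 was at 708 CPM there and 252 CPM in cluster 3, and Cxcl10 at 6725 and 3620 CPM. Cluster 3 was lower than clusters 2 and 6 in some cortical effectors. Ccl25 was at 419 CPM there, against 1991 CPM in cluster 2 and 4045 CPM in cluster 6. Tbata was at 416 CPM against 1731 and 2672 CPM, and Prss16 at 1378 CPM against 2724 and 3787 CPM. Cluster 17 was lower than cluster 3 in Ccl25, Tbata and Prss16. Slc46a2 and Il7 differed less between clusters 3 and 2. Cxcl12 (810.8 against 775.1 CPM) and Kitl averaged higher in cluster 3 than in cluster 2. Cluster 3 had the highest Zfp385b, Txnip, Fras1 and Dsc3. Clusters 6 and 8 were higher than cluster 2 in Ccl25 and Psmb11 (402 and 433 CPM, against 234 CPM in cluster 2) and lower in F830016B08Rik (217 and 148.9 CPM, against 1336 CPM). For Prss16 and Ly75 cluster 6 was above cluster 2 and cluster 8 below it, with Ly75 at 554, 441 and 287 CPM in clusters 6, 2 and 8. Cluster 17 was led by Cenpf, Clspn and Top2a, genes of dividing cells, and cluster 14 by Ccl21a (2995 CPM) and Krt5 (732 CPM).

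Cluster 9 differed in source. It was led by Sele, Il6, Meg3 and Pdgfra, which are not cortical genes, its Col1a1 level was 838 CPM against at most 174 CPM in the other clusters, and its Prss16 level was 1793 CPM. Of its 213 PcTEC, most came from HET replicate 2, where they were 10.7% of PcTEC, against 0.885 to 2.68% in the other libraries. Clusters 2 and 3 held 44.96, 32.6 and 45.8% (cluster 2) and 33.6, 32.8 and 33.5% (cluster 3) of PcTEC in the HET libraries, and 42.6, 36.4 and 37.7% and 37.4, 39.3 and 32.2% in those of WT, so the ranges of the genotypes overlapped for both.

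Among single cells, the spread was measured by the Fano factor (variance over mean) after thinning to 2000 UMIs, whose median over 6483 genes was 1.07. Malat1 had the highest value (54.3), followed by the protease gene Ctsl (15.5), Cxcl10 (13.1), Ccl21a (8.10) and F830016B08Rik (6.72). Ccl25 (6.19), the RNA Meg3 (5.80), Jun (4.98), Hspa1a (4.97), Fabp5 (4.80), Krt18 (4.47) and Cxcl9 (3.96) made up the 12. The Fano factor of cortical markers ranged widely, from Ctsl and Ccl25 above to 3.81 for Tbata, 3.23 for Prss16, 1.41 for Psmb11 and 1.32 for Ly75, and the last 3 had means of 4.62, 0.355 and 0.771 UMIs per cell. Malat1 and Ctsl had means of 169 and 36.7 UMIs per cell. At a given relative spread the Fano factor rises with the mean, so the order mixes abundance with spread. The part of abundance was not tested. Among the 12 genes of highest Fano factor were the interferon-inducible Cxcl10, Cxcl9 and F830016B08Rik, the chemokines Ccl25 and Ccl21a, and the immediate early Jun.

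The number of PcTEC was compared between genotypes as a share of TEC. PcTEC were 69.6, 53.6 and 61.98% of TEC in the HET libraries and 60.2, 51.2 and 41.1% in those of WT, with 95% Wilson intervals such as 66.3 to 72.6% (HET replicate 1) and 39.1 to 43.1% (WT replicate 3), which cover counting error only. The HET and WT ranges overlapped. The means were 61.7 ± 7.98% and 50.9 ± 9.56% (SD, n = 3), and the difference did not pass the test (log2 fold change 0.28 ± 0.19 SE, adjusted p = 0.424 over the 9 TEC labels by edgeR's quasi-likelihood test; exact permutation test, two-sided, p = 0.2, where 0.1 is the smallest that 3 against 3 allow). As a share of all labelled cells, PcTEC were 33.5, 25.9 and 24.7% in HET and 16.9, 22.4 and 17.2% in WT. These ranges did not overlap, with a log2 fold change of 0.57 ± 0.20 and an adjusted p of 0.172 over 29 labels, also by edgeR.

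The targeted genes were looked at first in the comparison of expression. Crkl was at 21.2, 21.03 and 33.6 CPM in PcTEC of the HET libraries and 29.7, 20.8 and 19.7 CPM in those of WT, with a log2 fold change of 0.11 (95% interval -0.44 to 0.66). Tbx1 had a single UMI in the PcTEC of all libraries, in WT replicate 2. Whether the 3′ tags lie in the deleted parts is not given, so neither gene checks the labels.

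No gene passed an adjusted p of 0.05 between HET and WT PcTEC, of 11954 tested with edgeR's quasi-likelihood test on UMIs summed per library (0% called), while 877 (7.34%) had an unadjusted p under 0.05. DESeq2 called 1 gene, Car3, and edgeR without a filter on low counts called 73, of which 67 were higher in HET. The 5 genes with the smallest p in the direction of HET, which did not pass, were Car3, Itga1, Clec14a, Cd300lg and Slc7a11. All 5 were among the 73 called without the filter, with adjusted p from 7.78e-12 to 0.0315 (edgeR). Car3, a carbonic anhydrase, was at 10.0, 49.4 and 7.21 CPM in HET and 0.742, 0.801 and 2.01 CPM in WT (log2 fold change 3.96, adjusted p = 0.643), with HET replicate 2 far above the rest. Clec14a and Cd300lg are genes of endothelium, and the summed level of 6 endothelial markers was 68.1, 169 and 118 CPM in HET and 85.3, 34.5 and 59.1 CPM in WT. The part of such transcripts in these values was not tested. Itga1, an integrin, was at 31.2, 52.4 and 58.8 CPM in HET and 20.03, 22.4 and 16.8 CPM in WT, and Slc7a11, a cystine transporter, at 12.3, 8.28 and 16.0 CPM and 2.23, 4.81 and 3.30 CPM. Slc7a11 averaged 66.8 CPM in ItTEC.

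In the direction of WT the 5 genes of smallest p, which also did not pass, were Grem1, Fam187b, Cmss1, Pdxk and Pop7. Grem1, an antagonist of BMP ligands, was at 2.23, 1.79 and 0.400 CPM in HET and 8.16, 8.02 and 4.73 CPM in WT (log2 fold change -2.19, adjusted p = 0.643), and it was the 1 of these 5 that passed without the filter (adjusted p = 0.0208, edgeR). Its value in HET replicate 3 was under the limit of 3 counts (1.20 CPM), and it averaged 23.4 CPM in ItTEC and 32.2 CPM in PrTEC. Pop7, a subunit of ribonuclease P, was at 20.1, 24.2 and 16.4 CPM and 35.6, 32.6 and 43.5 CPM. In these 10 genes the HET and WT libraries did not overlap, as was the case for 1242 (10.4%) of the genes tested. Leaving out HET replicate 2 or WT replicate 1 left no gene called and raised the number at an unadjusted p under 0.05 to 2276 and 2302, whereas leaving out WT replicate 2 or 3 lowered it to 395 and 312. The same test found no gene in McTEC and none in ItTEC, where 463 of 8686 and 217 of 7190 genes tested had an unadjusted p under 0.05. Fewer genes were tested in these labels than in PcTEC, so the counts are not on 1 scale.

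Among the cortical markers, 0 of 14 passed in either direction. Of the 14, 13 had a log2 fold change under 0, with a median of -0.38 beside 0.03 over all genes, and 3 had an unadjusted p under 0.05, as did 7.34% of all genes. Psmb11 was at 163.5, 196 and 120 CPM in HET and 188, 334 and 277 CPM in WT (log2 fold change -0.79, 95% interval -1.41 to -0.16). Dll4 was at 43.5, 31.8 and 32.4 CPM and 49.7, 65.99 and 51.5 CPM (log2 fold change -0.70, 95% interval -1.18 to -0.22), and Cd83 at 176, 166.9 and 114 CPM and 153, 258 and 288 CPM. For all 3 the highest values were in the libraries WT 2 and 3, which also had the most UMIs in the median PcTEC. The part of depth was not tested here. HET and WT did not overlap for Dll4, as for 10.4% of the genes tested, but did for Psmb11 and Cd83. Prss16, Slc46a2, Enpep and Ly75 lay between -0.14 and 0.03 on the log2 scale.

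The interferon-inducible GTPases showed no such side. None of the 16 passed, 0 had an unadjusted p under 0.05, 9 of 16 had a log2 fold change above 0, the median was 0.04, and the groups overlapped for each. Iigp1 (log2 fold change 0.10, 95% interval -0.61 to 0.81) and Gbp2 (-0.33, -0.84 to 0.17) are examples, so these intervals leave room for changes of either sign. Isg15 and Ifit1, which respond to type I interferon, did not pass either. Isg15, a ubiquitin-like protein, was at 312, 368 and 231 CPM in HET and 427, 419 and 667 CPM in WT (log2 fold change -0.79, 95% interval -1.43 to -0.14), and Ifit1, an antiviral RNA sensor, at 80.3, 91.1 and 76.9 CPM and 149.1, 110 and 130 CPM (-0.68, -1.14 to -0.22). HET and WT did not overlap for either gene, as for 10.4% of the genes tested.

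For the other lists described here 0 members passed as well. The median log2 fold change was -0.34 for 12 genes of MHC class II presentation, -0.23 for 16 of MHC class I and the proteasome, -0.28 for 12 T lineage ligands, -0.10 for 16 of autophagy and lysosome, 0.07 for 13 TEC transcription factors, 0.18 for 11 growth receptors, 0.12 for 16 cell cycle genes, 0.38 for 9 perinatal genes and -0.07 for 16 immediate early and heat shock genes. Pax1, a transcription factor of the pharyngeal endoderm, was at 253, 296 and 172.1 CPM in HET and 294, 434 and 412 CPM in WT (log2 fold change -0.71, 95% interval -1.32 to -0.10). Trp63, which maintains epithelial progenitors, was at 404, 313 and 398 CPM and 277, 251 and 237 CPM (0.50, 0.02 to 0.97). The HET values of Trp63 were all above those of WT, where 10.4% of the genes tested did not overlap between the groups. Neither gene passed the adjusted threshold. The 8 mTEC markers tested had a median of -0.22. The markers of other cells had positive medians, 0.91 for 8 fibroblast genes, 0.98 for 6 endothelial, 1.44 for 4 erythroid, 0.94 for 2 myeloid, 0.82 for 2 thymocyte and 2.20 for 2 parathyroid genes tested, the last a list added after values were seen. None passed, but 4 of the 8 fibroblast and 4 of the 6 endothelial genes had an unadjusted p under 0.05, beside 7.34% of all genes. The part of such transcripts in the genotype values was not tested.

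**Figure D4:**
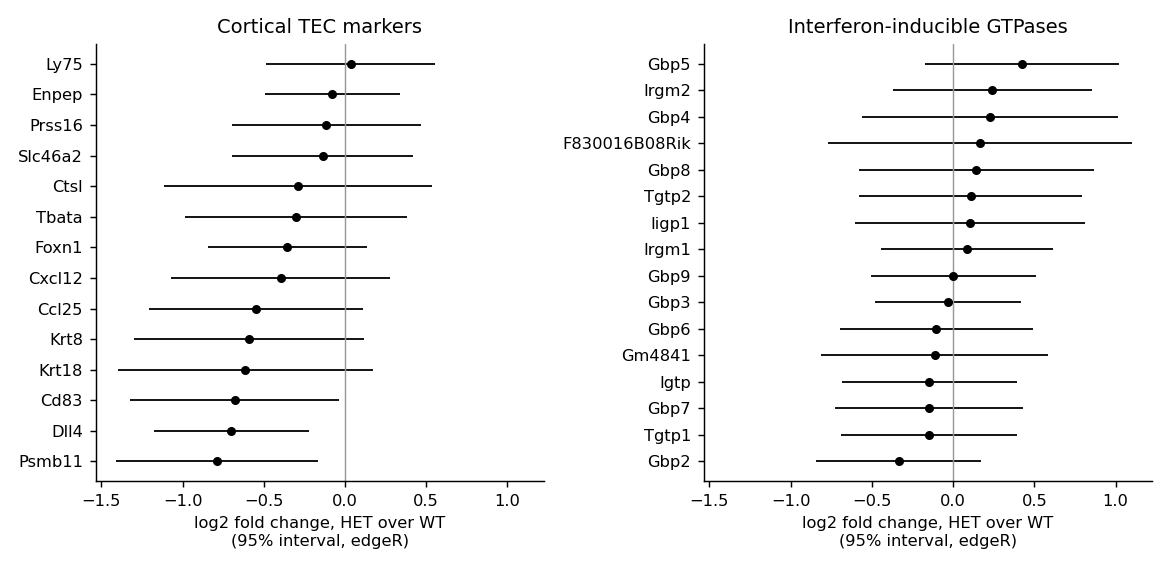
Log2 fold change of HET over WT in PcTEC (horizontal axis) with the 95% interval of edgeR for the 14 cortical TEC markers and the 16 interferon-inducible GTPases, 3 libraries against 3. Most cortical markers lie left of 0 and the GTPases lie on both sides of it, and none of the 30 passed the adjusted threshold.

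The genotype difference in PcTEC was then set against that in the other labels of the same libraries, with the library as a block. Against McTEC it differed for 5 of 11284 genes (0.0443%): Pth, Pla2g7, Gm26870, Cxcl9 and Tnfaip2. For Gm26870, a long non-coding RNA, PcTEC were at 32.4, 24.6 and 68.9 CPM in HET and 8.90, 18.97 and 8.46 CPM in WT, and McTEC at 70.9 ± 25.7 CPM and 101.5 ± 53.4 CPM (SD, n = 3; difference of log2 fold changes 1.79 ± 0.27 SE, adjusted p = 5.77e-05, edgeR). Cxcl9, a chemokine induced by interferon gamma, was at 70.8, 50.8 and 169 CPM in PcTEC of HET and 41.5, 47.3 and 41.3 CPM in those of WT, against 8.13 ± 4.59 CPM and 26.8 ± 18.5 CPM in McTEC (2.11 ± 0.43, adjusted p = 0.0207, edgeR). The McTEC levels of Cxcl9 rested on 86 UMIs in all libraries together. Its mean was 70.2 CPM in PcTEC and higher in other labels, at 266 CPM in ItTEC and 652 CPM in MmTEC. Tnfaip2, a gene induced by tumour necrosis factor, was at 186.9, 117 and 268 CPM and 166, 158.4 and 119.2 CPM in PcTEC, where the groups overlapped, and at 32.5 ± 4.71 CPM and 61.7 ± 14.6 CPM in McTEC (1.20 ± 0.26, adjusted p = 0.0448, edgeR). The calls for Cxcl9 and Tnfaip2 were both lost with DESeq2 and without HET replicate 1, HET replicate 3, WT replicate 1 or WT replicate 3, and that for Tnfaip2 also with RLE scaling (adjusted p = 0.0516, edgeR). The difference for Cxcl9 was 1.34 without HET replicate 3 and 3.27 without HET replicate 2, and that for Tnfaip2 was 0.77 without HET replicate 3.

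The calls for Pth and Pla2g7 rested on McTEC of HET replicate 2, with Pth at 1777 CPM and Pla2g7 at 151.1 CPM, where the other 5 libraries had at most 14.5 and 10.3 CPM. Pla2g7 was at 12.3, 19.02 and 10.0 CPM in PcTEC of HET and 15.6, 8.82 and 17.1 CPM in those of WT. Without HET replicate 2 the difference for Pth was 0.97 in place of -2.76, that for Pla2g7 was -0.67 in place of -3.50, and neither passed. Leaving out this library raised the number called to 8, leaving out HET replicate 1 or 3 lowered it to 3, and leaving out WT replicate 3 lowered it to 1, Gm26870, which was also the only gene called by DESeq2. Against ItTEC 0 of 11419 genes passed (0%), 806 had an unadjusted p under 0.05 with edgeR and 303 with DESeq2, which also called 0. Leaving out WT replicate 3 gave 12 calls and leaving out HET replicate 2 gave 3.

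The leading genes of PcTEC were finally read in the bulk libraries, whose RNA took no part in the labels. Bulk levels mix the number of cells of a type and the RNA per cell, which cannot be told apart. The sort was first checked: Prss16 was at 12505 ± 3455 CPM in cTEC and 550 ± 276 CPM in mTEC at P0 (SD, n = 6), and all 14 cortical markers were higher in cTEC by edgeR, where 8.38% of 17284 genes were higher and 28.8% lower. A fit of the 12 libraries of these groups alone called 2432 genes higher and 4049 lower, in place of 1448 and 4975.

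Of the 20 leading genes, 18 were tested in bulk, and 14 of them were higher in cTEC than in mTEC at P0 and 0 lower, with a median log2 fold change of 1.95 beside -0.36 over all genes. F830016B08Rik was at 162.6 ± 64.7 CPM in cTEC and 26.8 ± 8.59 CPM in mTEC (log2 fold change 2.42, adjusted p = 0.000164, edgeR). Irgm1 was at 628 ± 159 and 137.2 ± 20.03 CPM, Iigp1 at 1316 ± 306 and 340 ± 74.7 CPM, Cd274 at 237 ± 71.7 and 57.6 ± 12.7 CPM and Irf1 at 211 ± 57.9 and 67.6 ± 16.9 CPM. The adhesion and matrix genes were among those with the largest difference, Dsc3 with 451 ± 48.2 and 26.2 ± 17.2 CPM, Frem2 with 114.8 ± 17.9 and 12.9 ± 7.71 CPM and Col18a1 with 184.5 ± 33.9 and 24.6 ± 8.11 CPM. Cxcl10 did not differ beyond the spread, at 63.7 ± 14.5 and 60.9 ± 14.5 CPM (log2 fold change -0.11, 95% interval -0.52 to 0.31), and Gbp7, Gm4841 and Ier3 did not pass. Gm4841 (log2 fold change 1.87, adjusted p = 0.0531, edgeR) passed with RLE scaling, with only the 2 groups fitted and with DESeq2, and Ier3 (1.83, adjusted p = 0.108, edgeR) in the last 2 of these. Of 14 listed GTPases tested, 9 were higher in cTEC and 3 lower, the latter being Gbp4, Gbp8 and Gbp9. Gbp4 was at 38.6 ± 17.1 CPM in cTEC and 166.7 ± 52.3 CPM in mTEC, so the family was not uniformly cortical.

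Between cTEC of P0 and W4, 5 of the 18 leading genes were higher at P0 and 1, Gbp2, was lower, where 4.65% of 17284 genes were higher and 11.1% lower. Gm4841 was at 27.2 ± 16.7 CPM at P0 and 2.13 ± 0.924 CPM at W4 (log2 fold change 3.58, adjusted p = 0.00333, edgeR), F830016B08Rik at 162.6 ± 64.7 and 27.2 ± 6.06 CPM (2.503), Frem2 at 114.8 ± 17.9 and 18.5 ± 6.09 CPM (2.56), Iigp1 at 1316 ± 306 and 499 ± 240 CPM (1.32) and Cxcl10 at 63.7 ± 14.5 and 28.1 ± 6.63 CPM (1.11). Gbp2 was at 142.8 ± 13.6 and 222 ± 25.7 CPM (-0.71). For F830016B08Rik, Frem2 and Cxcl10 the lowest P0 library was above the highest W4 library, while for Gm4841 the lowest P0 library was at 3.07 CPM and highest W4 library at 3.56 CPM. A fit of the 2 cTEC groups alone called 8 of the 18 higher in place of 5.

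Of the 11 genes tested among those with the lowest ratio of PcTEC to McTEC, 5 were lower at P0 and 0 higher, and the other 6 did not pass. Fxyd2 was at 19.7 ± 5.03 CPM at P0 and 250 ± 39.9 CPM at W4, Ccl21a at 220 ± 102 and 2867 ± 1801 CPM, Bhlhe41 at 85.5 ± 42.6 and 395 ± 110 CPM, Krt5 at 115.05 ± 18.3 and 252 ± 84.2 CPM and Dusp28 at 27.7 ± 13.1 and 94.5 ± 15.2 CPM. Of the 9 tested with the highest ratio of PcTEC to McTEC, 3 were higher at P0 and 0 lower. Of the cortical markers, 4 of 14 were lower at P0 and 0 higher, beside 11.1% and 4.65% of all genes, with Ccl25 at 2076 ± 706 and 7470 ± 1203 CPM, Tbata at 1944 ± 339 and 5776 ± 1130 CPM, Cd83 at 2197 ± 303 and 5830 ± 2083 CPM and Psmb11 at 346 ± 94.03 and 1288 ± 298 CPM.

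Of the immediate early and heat shock genes, 7 of 16 were higher at P0 and 2 lower, and of the 11 perinatal genes H19, Hmga2, Igf2bp1 and Igf2bp3 were higher and 0 lower, beside 4.65% of all genes higher and 11.1% lower. Egr1, an early growth response factor, was at 2019 ± 596 CPM at P0 and 193 ± 107.1 CPM at W4, and Hmga2 at 4.77 ± 3.36 CPM at P0 and listed at 0 in each W4 library. Markers of other cells moved with age too: the 15 thymocyte markers were all lower at P0, with a summed level of 37.1 to 96.5 CPM at P0 and 804 to 3812 CPM at W4, and 5 erythroid markers had 0 to 1.13 CPM at P0 and 33.5 to 1405 CPM at W4. Of 8 fibroblast markers 6 were lower at P0, with sums of 28.4 to 149.7 CPM at P0 and 369 to 2842 CPM at W4. Of 12 mTEC markers, which include Ccl21a and Krt5, 7 were lower at P0 and 1 higher, with sums of 1640 to 2453 CPM and 1927 to 7727 CPM. Their part in the age comparison was not tested.

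**Figure D5:**
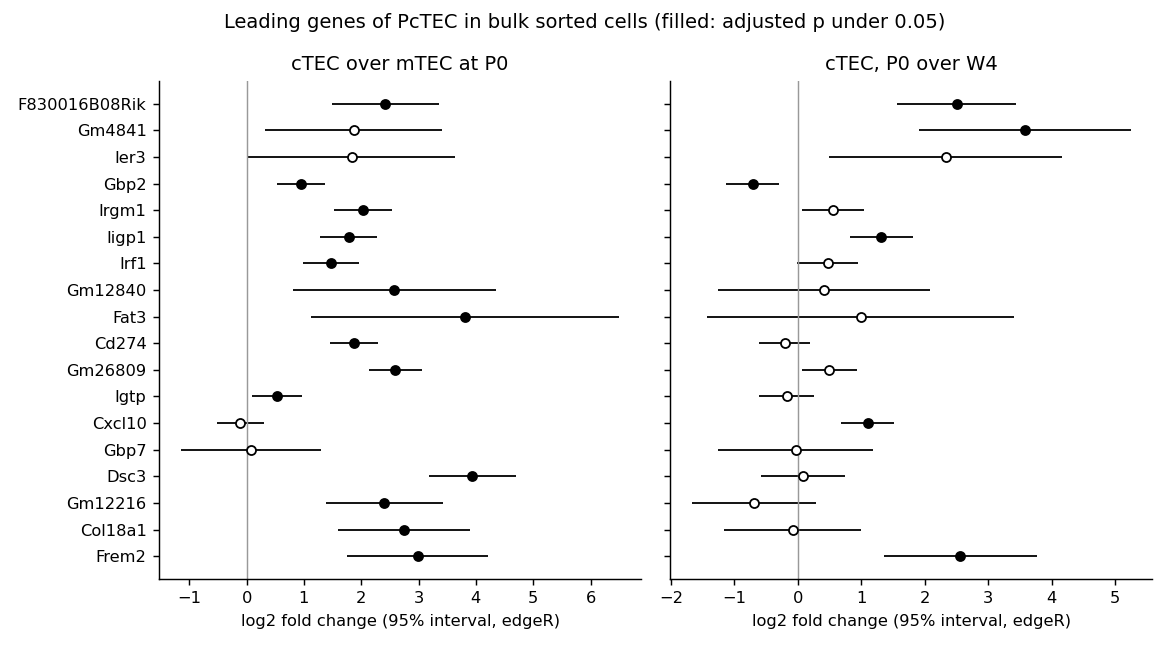
Log2 fold change with the 95% interval of edgeR (horizontal axes) of the 18 leading genes of PcTEC tested in bulk libraries of WT mice, cTEC over mTEC at P0 on the left and cTEC at P0 over W4 on the right, 6 libraries per group. Filled points passed an adjusted p of 0.05: 14 lie right of 0 on the left panel, while on the right panel 5 lie right of 0 and Gbp2 left of it.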

How the data were processed

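UMIs were measured in 6 libraries of P0 thymic stroma (3 HET, 3 WT) and reads in 24 bulk libraries of sorted WT TEC. The authors deposited UMI counts per gene and cell, made with Cell Ranger 3.1.0 on mm10 according to the submitters' processing notes, with a table of cell labels and Seurat clusters. By the study's methods, cells with over 1000 genes and a low mitochondrial share were kept, doublets were removed with DoubletFinder, and labels came from integrated data and label transfer, so a cell's label and its expression are not independent. The deposited bulk counts per gene came from STAR 2.5.3a and HTSeq, and 10.2 to 14.5% of the entries named no gene and were left out. Bulk depth was 5785352 to 13355031 counts per library. Of 39179 bulk gene IDs, 37607 had a symbol.

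PcTEC UMIs were summed per library and tested with edgeR 4.0.16 (R 4.3.3) using TMM scaling, filterByExpr and the quasi-likelihood test, with p-values adjusted over all genes tested by the Benjamini-Hochberg method at 0.05. DESeq2 1.42.0 was an alternative. Differences of the genotype effect between labels came from 1 fit per pair of labels with the library as a block, and bulk contrasts from 1 fit of the 24 libraries. Comparisons between labels are descriptions of mean CPM. Thinning, shares and promoter searches used Python 3.11.15, numpy 2.4.6, scipy 1.17.1 and pandas 2.3.3.

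The genes named were the 20 with the highest ratio (CPM + 5, mean of at least 50 CPM) over the next label, the 12 at either end against McTEC, the 12 with the highest Fano factor among cells, all genes called in a comparison, and, where fewer than 5 passed in a direction, the 5 with the smallest p. Single members of the gene lists were chosen as examples after their values were seen. The members and lists were chosen with earlier results of these data known, and the lists of interferon-inducible GTPases and parathyroid markers were added after the values were seen. For the stroma, the study's methods give n = 3 for the HET mice and n = 3 for their WT littermates. Where no source states that libraries came from separate animals, p-values measure only the spread between libraries. The meaning of the title prefixes of the bulk libraries is not given in the sources used here, and an alternative fitted them as a term. Other alternatives were RLE scaling, no filter on low counts, leaving out each stroma library, thinned cells, and cells without Seurat cluster 9. The scripts were tested on simulated data. Of the gene lists drawn up, 2 are not reported here.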

Additional observations from a re-analysis of the deposited data

Results flagged for a closer look

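In the bulk libraries, each group of 6 was searched for a sample far from the other 5 (Dixon's 95% critical value), in 67 groups of values for the genes that lead PcTEC and its markers. Chance alone marks about 1 in 20 such groups, and 8 were found. In cTEC at W4, replicate 1 was at 963 CPM for Iigp1, where the nearest library was at 541 CPM, and at 373 CPM for Igtp, where the nearest was at 258 CPM. Replicate 5 of the same group was at 0.395 CPM for Gm17056. In cTEC at P0, replicate 1 was at 11.7 CPM for Gm12840 and replicate 4 at 358 CPM for Dsc3, where the nearest library was at 457 CPM. In mTEC at P0, replicate 1 was at 0.640 CPM for Ier3, replicate 5 at 19.3 CPM for Gbp7 and replicate 6 at 260 CPM for Slc46a2.

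The genotype effect in PcTEC differed from that in McTEC, by edgeR's test of the difference, for 5 genes. On the log2 scale the difference was -2.76 for Pth, -3.50 for Pla2g7, 1.79 for Gm26870, 2.11 for Cxcl9 and 1.20 for Tnfaip2. Of these, Pth and Pla2g7 were at 1777 and 151.1 CPM in McTEC of HET replicate 2, and the part of parathyroid transcripts in them was not tested. The summed level of 4 parathyroid markers in PcTEC was 246 CPM in that library and 2.23 to 14.4 CPM in the others.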

How the results depend on the processing

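No gene was called between HET and WT PcTEC when any 1 library was left out (0 to 0 calls), with RLE scaling, with thinned cells, without Seurat cluster 9 or within clusters 2 and 3, the last 2 chosen after seeing the data, but DESeq2 called 1 and the lack of a filter 73. Libraries of the same replicate number did not deviate alike (correlation of deviations 0.113, 0.024 and -0.479). HET replicate 2 with WT replicate 3 gave 0.540, and HET replicate 3 with WT replicate 1 gave 0.453. With 3 libraries per group, these values cannot settle whether libraries were paired. With the replicate block 0 genes were called, 608 had an unadjusted p under 0.05, and the log2 fold change of the share of TEC was 0.29. That fold change ranged from 0.15 to 0.42 when single libraries were left out. For the difference from McTEC, the count of 5 became 1 with DESeq2 and 1 to 8 without single libraries, and Pth was at -3.67 to 0.97 without single libraries, 0.97 being the value without HET replicate 2. For the difference from ItTEC, the count of 0 became 5 without a filter and 0 to 12 without single libraries. The ranking in HET libraries alone kept 13 of the 20 leading genes, WT libraries alone 15 and thinned cells 15 (without Cxcl10 and Igtp), and leaving out single libraries kept 14 to 19. In bulk, the 5 leading genes higher at P0 became 8 with only the 2 groups fitted, and all genes higher at P0 1308 with DESeq2 and 1302 with 2 groups, in place of 804. With 2 groups 2432 genes were higher in cTEC than in mTEC, in place of 1448. Gbp7, not called, went from -0.03 to 0.0063 with RLE scaling and 0.0025 with DESeq2 between P0 and W4. The causes were not tested. WT replicate 1 had the fewest PcTEC UMIs, where 3 counts were worth 2.23 CPM.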

Other observations

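In bulk cTEC, genes of antigen presentation were mostly lower at P0. Of 16 genes of MHC class I presentation and the proteasome, 11 were lower at P0 than at W4 and 0 higher (edgeR, median log2 fold change -1.37), and of 13 genes of MHC class II presentation 10 were lower and 0 higher (median -0.64), beside -0.02 over all genes, of which 11.1% were lower and 4.65% higher. Of 16 cell cycle genes, 10 were lower at P0 and 0 higher. In the same contrast all 15 thymocyte markers, 7 of 12 mTEC markers and 6 of 8 fibroblast markers were lower at P0. At P0, 9 of the 13 MHC class II genes were lower in cTEC than in mTEC, beside 28.8% of all genes. The part of these other cells in the values was not tested.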
